A study of Mus musculus with 9 samples.

Results

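Transcripts of 10 genes with which macrophages sense microbes were followed in all 9 libraries, namely the Toll-like receptor (TLR) genes Tlr1, Tlr2, Tlr4, Tlr7, Tlr8, Tlr9 and Tlr13, the endotoxin co-receptor genes Cd14 and Ly96, and the adaptor gene Myd88. They were taken from a count table of 23413 genes by their symbols, and all 10 were among the 11393 genes with enough counts to be tested. The libraries were made from liver macrophages of C57BL/6 male mice that were 5 weeks old when the diets began, and each library is named in the labels for a separate mouse. Both HFD groups had been fed a high-fat diet (HFD, 60% of calories from fat) for 8 weeks, and from week 3 they were injected every 5 days with the vehicle PEG3000 (vehicle, n = 3) or with diphenyleneiodonium (DPI) at 2 mg/kg in that vehicle (DPI, n = 4). The remaining group had a normal chow (NC, 10% of calories from fat) for the same 8 weeks, with no injection stated (NC, n = 2). DPI is a flavoenzyme inhibitor that the study used to activate the receptor GPR3, and the comparisons ask what the diet and the compound did to the transcripts of these cells. The sample labels also carry a note of 500 nM DPI for 24 h on isolated cells, which differs from the dosing of live mice given in the series' design and the methods, and the latter were followed.

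TLRs are germline-encoded receptors that recognise molecules shared by many microbes, and most of them signal through the adaptor MyD88 to NF-kB and to the genes of inflammatory cytokines. TLR4, with the lipid-binding protein MD-2 (the product of Ly96) and the carrier CD14, senses bacterial endotoxin (lipopolysaccharide) at the cell surface, while another set of TLRs samples nucleic acids inside endosomes. Liver macrophages face the portal blood, and they are a main site at which endotoxin from the gut is cleared.

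Most of the receptor transcripts were lower in the DPI group than in the vehicle group, but the differences were spread unevenly over the mice. The log2 fold change of DPI against vehicle was below 0 for 9 of the 10 genes, where 46.9% of all tested genes were below 0, and its median over the 10 genes was -0.61 against 0.04 over all tested genes. The 2 genes past the study's threshold, an unadjusted p under 0.05 with a change of at least 2-fold, were Tlr7 and Tlr9, both sensors of nucleic acids and both lower with DPI. The background in this comparison was 1.34% of tested genes called lower and 2.84% called in either direction. In HFD against NC, only Tlr9 of the 10 passed the threshold, and it was higher, where 7.03% of tested genes were called higher and 11.7% in all. In DPI against NC, Tlr1 alone of the 10 passed and was lower, where 3.05% of tested genes were called lower and 9.29% in all. None of the 10 had an edgeR p below 0.05 after Benjamini-Hochberg adjustment over all tested genes, where 0.0614%, 0% and 0.00878% of tested genes had one in HFD against NC, DPI against vehicle and DPI against NC. None of the 10 had one with DESeq2 either, whose share over all genes is not given here. DESeq2 did give one to other genes, for example the pathway gene Socs1 in HFD against NC (adjusted p = 0.00556). At an unadjusted p under 0.05 edgeR counted 1 of the 10 in HFD against NC (13% of tested genes), 3 in DPI against vehicle (4.13%) and 1 in DPI against NC (10.7%). Adjusted p-values printed below are those of edgeR, and 'passed' refers to the study's unadjusted threshold. The vehicle libraries enter both of the first comparisons and the NC libraries enter 2 as well, so the 3 sets of values are not independent of each other.

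**Figure D1:**
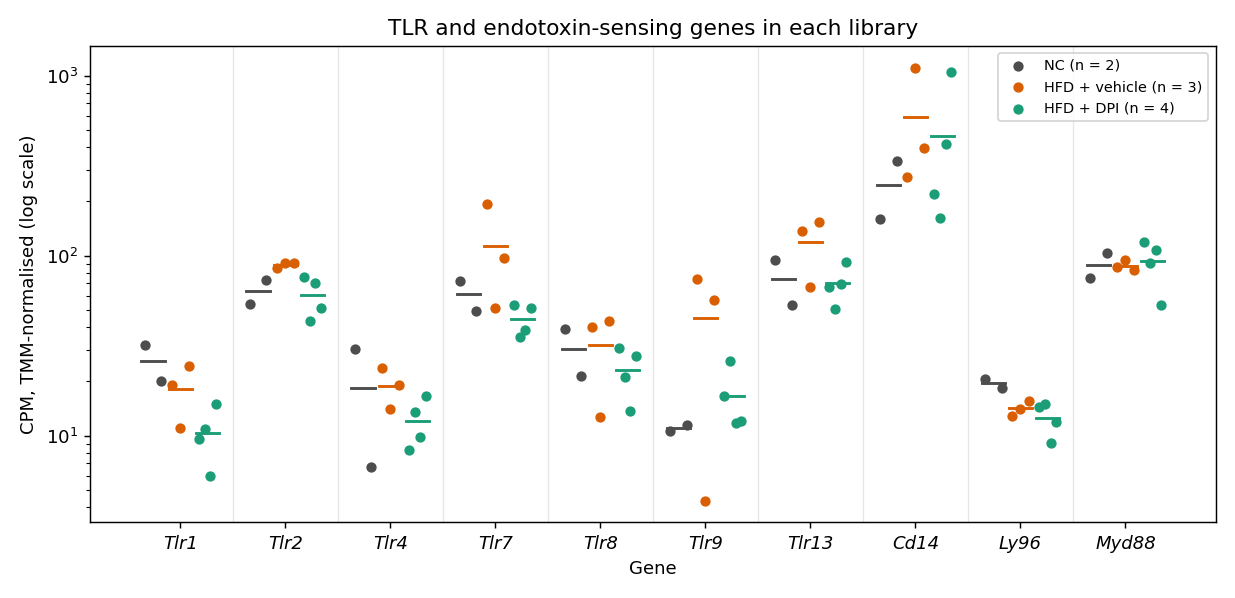
Level of each of the 10 genes in each of the 9 libraries, as CPM (counts scaled to library size with TMM factors, log axis), with points for single libraries, horizontal bars for group means, and colours for NC, HFD with vehicle and HFD with DPI. For Tlr9, vehicle libraries 1 and 3 sit at 73.7 and 56.5 CPM and vehicle library 2 at 4.35 CPM, the lowest of all 9.

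The sorted cells carried macrophage transcripts, but the defining transcripts of Kupffer cells (KCs) were close to 0 in most libraries. The libraries held between 3534325 and 15585775 counts (median 4918629), of which the ribosomal RNA precursor Rn45s took 27.0% to 44.5%. The floor of 3 counts corresponded to 0.184 to 1.02 CPM, and it covers counting error only, since amplified copies of one molecule cannot be recognised in these counts. The sort kept F4/80+CD11b+Gr1low cells, which the labels call Kupffer cells. The macrophage genes Csf1r (385 to 751 CPM) and Lyz2 and the F4/80 gene Emr1 (55.0 to 142 CPM) were present throughout, as were the monocyte genes Ly6c2 (441 to 1492 CPM) and Plac8. Some macrophage and monocyte markers differed with the diet. In HFD against NC, Csf1r (-0.06 ± 0.30, log2), Lyz2 (-0.17 ± 0.33) and Plac8 (0.36 ± 0.26) did not pass the threshold. On the log2 scale, Emr1 (-1.05 ± 0.38) and C1qa (-1.37 ± 0.57), 2 of 7 tested macrophage markers, and Ccr2 (-1.23 ± 0.45), 1 of 4 monocyte markers, were called lower in HFD against NC, and Ly6c2 (1.04 ± 0.35) was called higher. C1qa was also called higher in DPI against vehicle, by 1.14 ± 0.50, as the only one of these 11 markers. Of the KC markers, Clec4f was at 0 in 3 libraries and reached 45.6 CPM in NC library 2, Marco was at or under 1 count everywhere, and the 6 KC markers together came to between 0 and 72.1 CPM. The cells are therefore called liver macrophages here. Neutrophil markers, which the Gr1low gate should reduce, and B cell markers were also present, and they are given beside the results they move with. Within a bulk library, fewer cells of a type and less RNA per cell cannot be told apart.

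Promoter windows that hold a motif of macrophage genes are shown, and they belong to Tlr1, which was called in DPI against NC, and to the nucleic acid receptors Tlr9, called in DPI against vehicle, Tlr13 and Tlr8. RefSeq windows of 300 bases (250 before and 50 after the annotated start, GRCm38.p6) were used for 6 of the 10 genes, in 7 windows. No window of Tlr4, Tlr7, Cd14 or Ly96 was used, whether or not one could be matched. The counts of windows below therefore leave these genes out. The core of the PU.1 site, GAGGAA on either strand (TTCCTC when read on the opposite strand), is set in capitals, PU.1 being a master transcription factor of macrophages. The 4 windows with the core, 5′ to 3′ on the strand of the gene, are those of Tlr1 (chr5:64933509-64933808, minus strand), Tlr9 (chr9:106222348-106222647, plus strand), Tlr13 (chrX:106143025-106143324, plus strand) and Tlr8 (chrX:167264280-167264579, minus strand):
Tlr1: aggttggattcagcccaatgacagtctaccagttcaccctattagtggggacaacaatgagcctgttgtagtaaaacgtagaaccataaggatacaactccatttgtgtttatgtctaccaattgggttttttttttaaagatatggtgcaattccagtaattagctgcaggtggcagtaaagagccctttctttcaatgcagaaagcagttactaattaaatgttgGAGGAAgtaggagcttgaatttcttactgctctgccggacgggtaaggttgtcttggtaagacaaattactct
Tlr9: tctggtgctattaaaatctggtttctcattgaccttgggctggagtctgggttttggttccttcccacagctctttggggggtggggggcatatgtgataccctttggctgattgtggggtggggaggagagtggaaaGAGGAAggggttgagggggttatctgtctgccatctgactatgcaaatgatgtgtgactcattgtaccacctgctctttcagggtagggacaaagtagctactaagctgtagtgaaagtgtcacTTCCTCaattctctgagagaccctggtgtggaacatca
Tlr13: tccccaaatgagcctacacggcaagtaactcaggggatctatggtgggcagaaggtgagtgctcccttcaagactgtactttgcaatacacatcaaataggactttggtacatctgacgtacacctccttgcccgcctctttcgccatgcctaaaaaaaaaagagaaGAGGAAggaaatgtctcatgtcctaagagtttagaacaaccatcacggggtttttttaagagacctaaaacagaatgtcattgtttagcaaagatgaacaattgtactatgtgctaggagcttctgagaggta
Tlr8: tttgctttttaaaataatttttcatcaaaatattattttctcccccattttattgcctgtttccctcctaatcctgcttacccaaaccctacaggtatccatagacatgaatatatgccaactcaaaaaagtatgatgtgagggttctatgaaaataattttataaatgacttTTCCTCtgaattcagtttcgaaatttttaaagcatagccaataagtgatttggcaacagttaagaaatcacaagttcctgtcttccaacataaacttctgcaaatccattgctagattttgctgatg
The capitals begin 23 bases before the start of Tlr1, 112 bases before and 12 bases after the start of Tlr9, 83 bases before the start of Tlr13 and 77 bases before that of Tlr8. The other of the 2 windows of Tlr1 did not hold the core, so that 4 of the 7 windows did, where 28.3% of all 32851 RefSeq windows of that length hold it. The windows were also searched for a TATA box, an NF-kB consensus and an interferon response core. The window of Tlr2 held 3 matches of the NF-kB consensus, which 8.5% of all windows hold. Those of Myd88 and Tlr8 each held 2 TATA boxes, found in 13.6% of all windows. That of Myd88 held 1 interferon response core (3.4% of all windows). The other windows shown or searched held none of these. A match of letters describes the sequence and shows no binding.

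Per length, Cd14 was the most abundant of the 10 transcripts in every library. Levels were compared between genes only as CPM per kilobase (kb) of the longest protein-coding transcript in GENCODE M21. Cd14 stood at 279 ± 221 CPM per kb (SD over 9 libraries) and Myd88, next in order, at 46.1 ± 9.84, below Cd14 and above Tlr2 in all 9. Tlr2 (23.4 ± 5.84 CPM per kb), Ly96 (23.2 ± 5.41) and Tlr13 (21.5 ± 8.95) did not differ beyond their spread, since Tlr2 exceeded Ly96 in 5 of 9 libraries and Ly96 exceeded Tlr13 in 5 of 9. Tlr7 followed at 18.3 ± 12.6 CPM per kb, and Tlr13 lay above it in 8 of 9 libraries. Tlr8 (8.09 ± 3.33), Tlr9 (7.11 ± 6.89) and Tlr1 (5.43 ± 2.73 CPM per kb) overlapped, with Tlr8 above Tlr9 in 6 libraries and Tlr9 above Tlr1 in 5. Tlr4, the receptor that signals for endotoxin, was the lowest at 3.87 ± 1.87 CPM per kb and lay under Tlr1 in 8 of 9. With the union of all exons as length, Ly96 fell to 14.3 CPM per kb and to place 6 in the order.

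**Figure D2:**
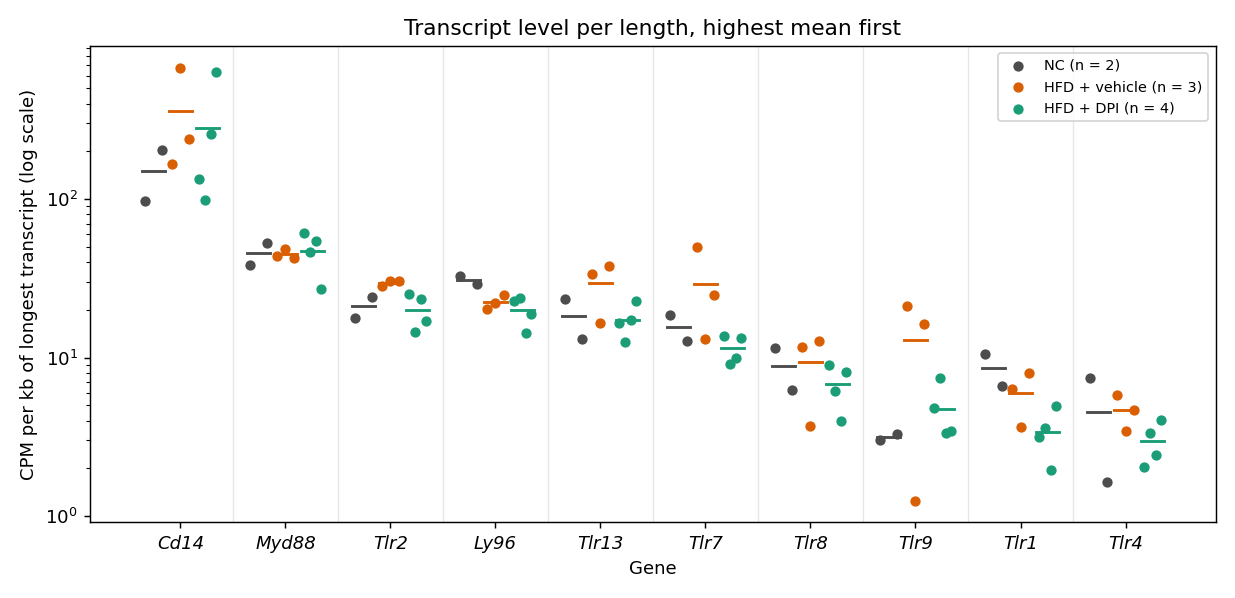
Level of the 10 genes per length in each library, in CPM per kb of the longest transcript on a log axis, ordered by the mean over the 9 libraries (points: libraries; bars: group means). Cd14 lies above all others in every library and Tlr4 has the lowest mean, 3.87 CPM per kb.

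The endotoxin-sensing genes did not pass the threshold in any of the 3 comparisons. Tlr4 (chr4:66827584-66930284, plus strand) stood at 30.2 and 6.72 CPM in the NC libraries, at 23.8, 14.0 and 19.1 CPM in the vehicle libraries, and at 8.34, 13.6, 9.83 and 16.5 CPM in the DPI libraries. The NC libraries held both the highest and the lowest value, and all groups overlapped. Its log2 fold change was 0.03 ± 0.65 (SE) for HFD against NC (adjusted p = 0.994), which turned to -0.29 with library size scaling, and -0.65 ± 0.54 for DPI against vehicle (adjusted p = 0.999). For DPI against NC it was -0.62 ± 0.60, and it turned to 0.85 without NC library 1. Without NC library 2 it was -1.30 and passed.

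Ly96 (chr1:16688051-16709611, plus strand), whose product MD-2 binds the lipid part of endotoxin, was the only one of the 10 that was lower in every HFD-fed mouse than in every NC mouse. It stood at 20.6 and 18.5 CPM with NC, at 12.9, 14.0 and 15.6 CPM with vehicle, and at 14.5, 14.9, 9.09 and 11.8 CPM with DPI. Groups without overlap in that direction were found for 12.5% of tested genes when vehicle was set against NC and for 8.5% when DPI was. The log2 fold changes of Ly96, -0.47 ± 0.51 (adjusted p = 0.757) and -0.63 ± 0.48 (adjusted p = 0.663), did not pass. The vehicle and DPI values of Ly96 overlapped, with a difference of -0.17 ± 0.43 on the log2 scale. Its counts were among the lower ones, 44 to 236 per library. The 6 hepatocyte markers, summed, had the same order, at 114 and 221 CPM with NC and at most 82.5 CPM in every HFD-fed mouse, and their part in the Ly96 values was not tested.

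Cd14 (chr18:36725067-36726798, minus strand), which hands endotoxin to TLR4 and MD-2, varied widely between mice of a group. Cd14 stood at 159 and 337 CPM with NC, at 275, 1108 and 394 CPM with vehicle, and at 221, 162, 420 and 1047 CPM with DPI. Vehicle library 2 and DPI library 4 were far above the other 7, and all groups overlapped. The group means were 248 ± 126, 592 ± 451 and 462 ± 405 CPM (SD). On the log2 scale HFD differed from NC by 1.26 ± 0.75 (adjusted p = 0.492), DPI from vehicle by -0.36 ± 0.59 (adjusted p = 0.999) and DPI from NC by 0.90 ± 0.71 (adjusted p = 0.680). These values depended on single libraries. Without vehicle library 2 the diet difference was 0.43 and that of DPI against vehicle turned to 0.47, while without DPI library 4 the latter was -1.15 and passed and DPI against NC was 0.11. The diet difference ranged from 0.43 to 1.93 with each library left out.

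Summed markers of other cell types also differed widely between the DPI libraries. The 8 neutrophil markers measured (Ly6g was not analysed here) summed to 667 and 693 CPM in DPI libraries 1 and 2 and to 3515 and 4941 CPM in libraries 3 and 4, against 2185 to 3439 CPM with vehicle and 958 to 2824 CPM with NC. S100a8 and S100a9, which encode an abundant cytosolic protein pair of neutrophils and some monocytes, ran from 158 to 1899 CPM and from 150 to 2356 CPM over the DPI libraries. Among the others of the 8, Retnlg (24.1, 54.0, 397 and 362 CPM), Ngp (161, 112, 433 and 202) and Ltf (55.3, 52.6, 92.4 and 87.1) were likewise higher in DPI libraries 3 and 4 than in 1 and 2, whereas Camp (43.0, 29.5, 55.5 and 23.3), Elane (35.4, 28.2, 62.7 and 7.76) and Mpo (40.8, 7.13, 59.9 and 3.47 CPM) were not. Ngp, Camp and Ltf were called higher in DPI against vehicle. The 6 B cell markers summed to 38.2, 15.6, 118 and 423 CPM over DPI libraries 1 to 4, to 93.9, 188 and 138 CPM with vehicle, and to 14.9 and 72.1 CPM with NC. The highest B cell sums, in DPI library 4 and vehicle library 2, came from the same libraries that were highest for Cd14. Markers of sinusoidal endothelium stood at 139 and 75.7 CPM in DPI libraries 1 and 2 against 4.27 and 26.6 CPM in libraries 3 and 4. They came to 9.43 to 12.9 CPM with vehicle and 117 to 182 CPM with NC. The part of these transcripts in the Cd14 values was not tested.

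**Figure D3:**
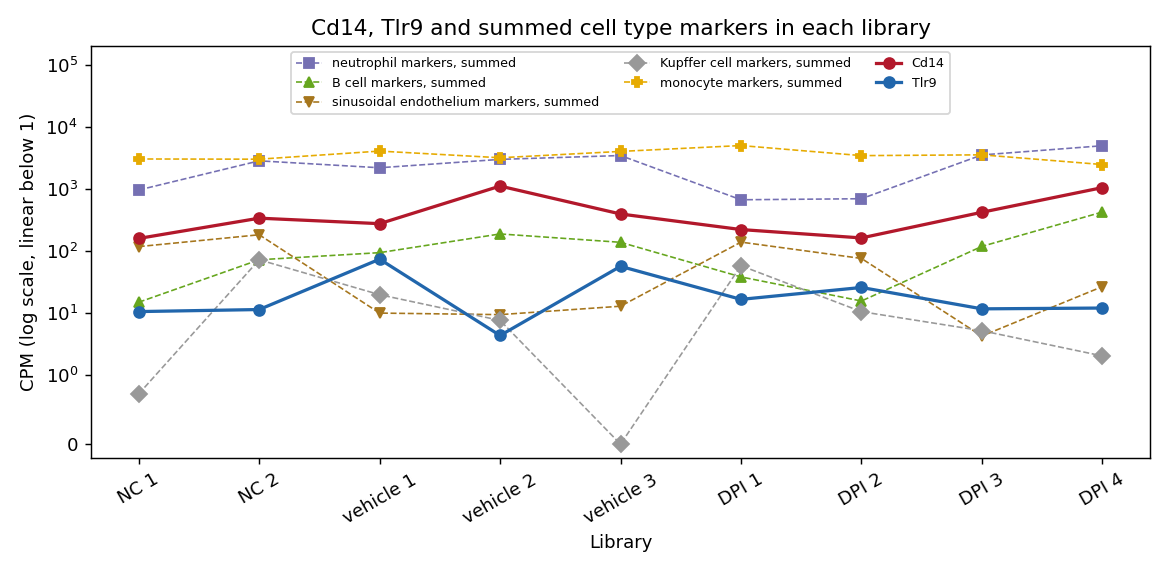
Cd14 and Tlr9 (solid lines) and the summed markers of 5 cell types (dashed lines) in each of the 9 libraries, in CPM on an axis that is logarithmic above 1 and linear below it; lines only join the values of one gene or list. Cd14 peaks in vehicle library 2 and DPI library 4, at 1108 and 1047 CPM.

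The lipopeptide receptors differed from each other. Tlr2 (chr3:83836272-83841767, minus strand) recognises bacterial lipoproteins as a pair with TLR1 or TLR6, and it had the tightest vehicle values of the 10. It stood at 53.7 and 72.8 CPM with NC, at 85.5, 91.0 and 91.2 CPM with vehicle, and at 75.8, 43.5, 70.9 and 51.4 CPM with DPI. Every vehicle library lay above every NC and every DPI library, while NC and DPI overlapped. Groups without overlap were found for 15% of tested genes as higher values in HFD against NC and for 2.48% as lower values in DPI against vehicle. Neither difference passed, the log2 values being 0.50 ± 0.35 with the diet (adjusted p = 0.572) and -0.56 ± 0.28 for DPI against vehicle (adjusted p = 0.999). The latter lay between -0.69 and -0.44 with each library left out. The value of Tlr2 for DPI against NC was -0.06 ± 0.32.

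Tlr1 (chr5:64924679-64933563, minus strand), the partner of TLR2 for triacylated lipopeptides, was lowest in the DPI group. It stood at 32.1 and 20.0 CPM with NC, at 19.1, 11.1 and 24.3 CPM with vehicle, and at 9.56, 10.9, 5.94 and 14.9 CPM with DPI. Each DPI library lay under both NC libraries, as was so for 8.5% of tested genes, and the vehicle libraries overlapped both groups. DPI against NC gave a log2 fold change of -1.33 ± 0.53 (adjusted p = 0.410), which passed. It no longer passed without NC library 1 (-0.94) or without DPI library 3 (-1.14), nor with either pair of DPI libraries alone (-1.35 and -1.31). Tlr1 was at -0.52 ± 0.57 for HFD against NC and at -0.81 ± 0.48 for DPI against vehicle. Its close paralog Tlr6 lies 18467 bases away on the same strand, and how reads shared by the pair were divided rests on the authors' counting.

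The nucleic acid receptors of the endosome held the 2 largest differences of DPI against vehicle, those of Tlr9 and Tlr7. All 4 were below 0 in DPI against vehicle, the median being -1.05 (log2), and all 4 were above 0 in HFD against NC, the median being 0.79, although Tlr8 turned to -0.27 there with library size scaling. Vehicle library 2 was the lowest of its group for each of them, so that the groups overlapped for all 4 genes in these comparisons.

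Tlr7 (chrX:167304929-167330558, minus strand) senses single-stranded RNA and had the smallest p of the 10 when DPI was set against vehicle. It stood at 72.7 and 49.3 CPM with NC, at 193, 51.0 and 96.6 CPM with vehicle, and at 53.1, 35.3, 38.6 and 51.4 CPM with DPI. Vehicle libraries 1 and 3 were above all others, and vehicle library 2 lay within the DPI values. The vehicle mean was 113 ± 72.4 CPM and the DPI mean 44.6 ± 8.98 CPM (SD), with a log2 fold change of -1.34 ± 0.39 that passed (adjusted p = 0.999). Without vehicle library 1 it was -0.72 and no longer passed, and without vehicle library 2 it was -1.69. The diet difference was 0.90 ± 0.48 (adjusted p = 0.449), which passed with vehicle library 2 left out (1.25) and in no other fit that left out 1 library. DPI against NC gave -0.45 ± 0.44 for Tlr7.

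Tlr9 (chr9:106222598-106226883, plus strand) senses DNA with unmethylated CpG and was the most uneven of the 4. It stood at 10.6 and 11.4 CPM with NC, at 73.7, 4.35 and 56.5 CPM with vehicle, and at 16.6, 25.8, 11.7 and 12.0 CPM with DPI. Vehicle libraries 1 and 3 were higher than all other libraries, whereas vehicle library 2, with 24 counts, was under both NC libraries. Both calls of Tlr9 therefore rested on 2 of the 3 vehicle libraries: the log2 fold change was 2.03 ± 0.86 for HFD against NC (adjusted p = 0.352) and -1.45 ± 0.66 for DPI against vehicle (adjusted p = 0.999).

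The Tlr9 calls were lost when single libraries were left out and in several other fits. The HFD call was lost without NC library 1 (1.97), NC library 2 (2.10), vehicle library 1 (1.50) or vehicle library 3 (1.87). The DPI call was lost without vehicle library 1 (-0.88), vehicle library 3 (-1.24), DPI library 1 (-1.45), DPI library 3 (-1.31) or DPI library 4 (-1.32). Without vehicle library 2 the values were 2.57 and -1.99, and both passed. With all libraries kept, the HFD call was lost with library size scaling (1.71), with 2 groups only (2.02) and with the replicate block (1.84). That block is by library number, which pairs no animals across the groups. The DPI call was lost with the replicate block (-1.12) and with DPI libraries 1 and 2 alone (-1.09) or 3 and 4 alone (-1.91). All 4 DPI libraries lay above both NC libraries, the highest NC value being 11.4 CPM and the lowest DPI value 11.7 CPM, with a log2 fold change of 0.58 ± 0.78. Groups without overlap in that direction were found for 11.7% of tested genes.

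Plasmacytoid dendritic cells and B cells also use Tlr7 and Tlr9. Of the 6 markers of plasmacytoid dendritic cells, Siglech was at 5.09 CPM or less in every library and Klk1 was at 0 throughout, and nearly all of the summed level (55.1 to 96.8 CPM with vehicle, 44.3 to 102 CPM with DPI and 33.3 to 42.6 CPM with NC) was Bst2, which other cells express too. Over vehicle libraries 1, 2 and 3 the plasmacytoid sum was 96.8, 55.1 and 72.6 CPM (Bst2 88.3, 51.0 and 68.1 CPM) and the sum of the 6 dendritic cell markers 78.6, 30.6 and 53.8 CPM. Both sums were lowest in vehicle library 2, as were Tlr7 and Tlr9, whereas the B cell sum was highest there. The members of the lists differed. Bst2, Ccr9, Cox6a2, Cd209a, Clec9a and Itgae were lowest in vehicle library 2. Siglech (3.11, 3.08 and 1.49 CPM over vehicle libraries 1 to 3) and Pacsin1 (2.89, 0.907 and 0.496 CPM) were lowest in library 3. So were Flt3 (25.5, 9.07 and 6.94 CPM) and Xcr1 (6.22, 2.72 and 1.73 CPM), and Zbtb46 was at 0 in libraries 2 and 3. The part of these lists in the Tlr7 and Tlr9 values was not tested beyond these levels.

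Tlr13 (chrX:106143204-106160493, plus strand), a mouse receptor for bacterial ribosomal RNA, was the most abundant endosomal receptor per length on average. It stood at 95.1 and 53.2 CPM with NC, at 137, 67.1 and 154 CPM with vehicle, and at 67.2, 50.6, 69.8 and 92.5 CPM with DPI. Vehicle libraries 1 and 3 were again above all others, and vehicle library 2 lay among the DPI values. Tlr13 was lower with DPI than with vehicle by a log2 value of -0.76 ± 0.34 (adjusted p = 0.999), with an unadjusted p under 0.05 but less than 2-fold, and it passed at -1.05 without vehicle library 2. The diet difference was 0.68 ± 0.42 (adjusted p = 0.512), which passed at 1.17 without NC library 1. DPI against NC gave -0.08 ± 0.39.

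Tlr8 (chrX:167242696-167264329, minus strand), which responds to products of RNA breakdown, stood at 39.3 and 21.5 CPM with NC, at 40.0, 12.7 and 43.4 CPM with vehicle, and at 30.6, 21.1, 13.7 and 27.7 CPM with DPI. The groups overlapped throughout, and vehicle library 2 held the lowest value of all. Its log2 fold change was 0.07 ± 0.56 with the diet, which turned to -0.27 with library size scaling. DPI against vehicle gave -0.45 ± 0.47 (adjusted p = 0.999) and DPI against NC gave -0.38 ± 0.53. Tlr8 and Tlr7 are neighbours on the same strand of chromosome X, 40599 bases apart. The per-length ratio of Tlr7 to Tlr8 was 4.25, 3.53 and 1.96 under vehicle, 1.53, 1.48, 2.47 and 1.64 under DPI, and 1.63 and 2.02 under NC, so that vehicle libraries 1 and 2 had the highest ratios and vehicle library 3 lay within the other groups.

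The endosomal receptors made up most of the per-length signal of the 7 TLRs in all but one library. Their share was 74.1%, 48.1% and 68.1% under vehicle, 59.1%, 62.2%, 55.3% and 64.6% under DPI, and 61.2% and 52.1% under NC. The summed level of the 7 TLRs was 156, 71.8 and 135 CPM per kb under vehicle, 74.2, 56.4, 62.3 and 73.5 under DPI, and 92.4 and 67.7 under NC. Vehicle libraries 1 and 3 had both the highest sums and the highest endosomal shares, and vehicle library 2 had the lowest share and a sum within the DPI range. On the same scale Cd14 exceeded Tlr4 by 13.1-fold to 197-fold and Ly96 exceeded Tlr4 by 3.50-fold to 17.7-fold over the 9 libraries.

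Myd88 (chr9:119335934-119341411, minus strand), the adaptor shared by these receptors, was the one gene of the 10 whose fold change with DPI was not below 0. It stood at 75.4 and 103 CPM with NC, at 86.1, 94.7 and 83.3 CPM with vehicle, and at 119, 91.4, 107 and 53.2 CPM with DPI. The DPI group held both the highest and the lowest value, and the groups overlapped. DPI differed from vehicle by 0.08 ± 0.30 on the log2 scale (adjusted p = 0.999), HFD from NC by -0.02 ± 0.36 and DPI from NC by 0.06 ± 0.34, the last of which was -0.16 with library size scaling.

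**Figure D4:**
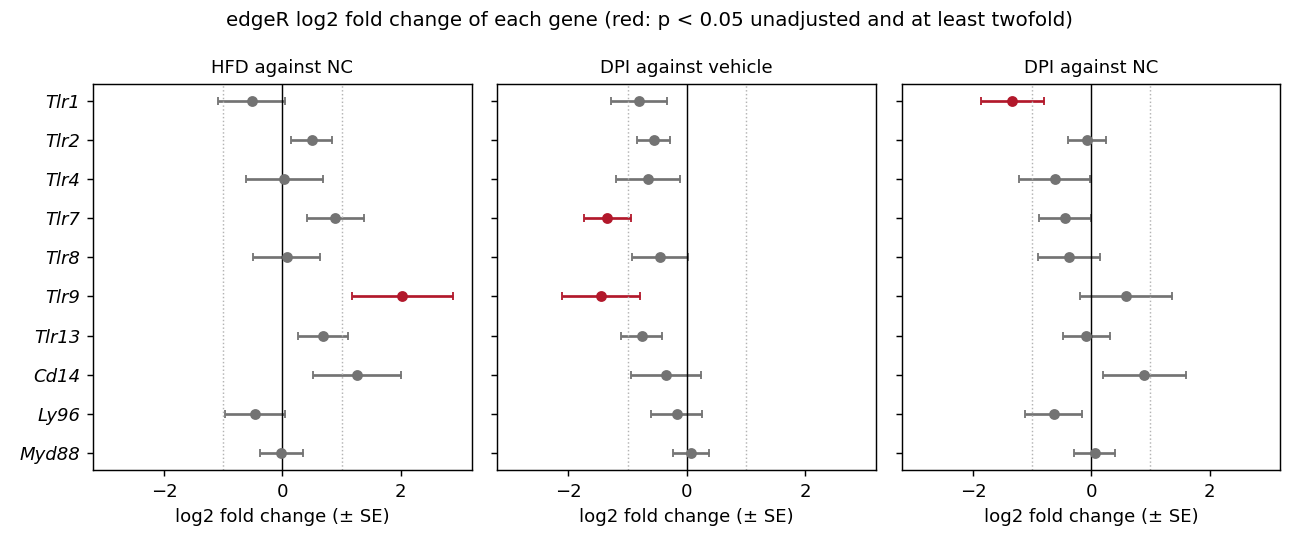
Log2 fold change of the 10 genes in HFD against NC, DPI against vehicle and DPI against NC (points: edgeR estimate; bars: 1 SE; dotted lines: 2-fold; red: past the study's unadjusted threshold). In the middle panel 9 of the 10 estimates lie below 0 and Tlr7 and Tlr9 are red. Fits scaled by library size are not drawn. There Tlr4 (-0.29) and Tlr8 (-0.27) were below 0 in HFD against NC, as was Myd88 (-0.16) in DPI against NC.

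The remaining TLRs were scarce. Tlr3, the receptor for double-stranded RNA, had 0 counts in 6 of 9 libraries and 71 in DPI library 1, and was not tested. Tlr5, the receptor for flagellin, had 2 to 99 counts, and Tlr6, the other partner of TLR2, had 4 to 195. Tlr11 and Tlr12, which recognise profilin of protozoa, were at 0 in several libraries while reaching 105 and 96 counts in DPI library 1. Cd180, a TLR-like regulator of endotoxin responses, was higher in HFD against NC, by 1.31 ± 0.59 on the log2 scale (adjusted p = 0.373), although vehicle library 2 (14.5 CPM) lay under NC library 1 (14.8 CPM). This call was lost in 10 of 20 alternative fits, and without vehicle library 1 the value was 0.75.

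Around the receptors, 72 of 79 listed pathway genes were tested, and the share of them called was not far from that of all tested genes in each comparison. In HFD against NC, 10 of the 72 were called higher and 0 lower (13.9% against 11.7% of all tested genes), and the median log2 fold change was 0.25 against 0.03; with library size scaling 4 were higher and 2 lower. The list of inhibitors held 5 of the 10, out of 12 tested, with a median of 0.73. Socs1, a suppressor of cytokine signalling, was higher by 2.04 ± 0.53 on the log2 scale (adjusted p = 0.166). Nfkbia, which encodes the NF-kB inhibitor IkBa, was higher by 1.05 ± 0.37 (adjusted p = 0.289), and Trafd1, a feedback inhibitor, by 1.05 ± 0.38 (adjusted p = 0.298). Sigirr, a decoy-type receptor of the same superfamily, had 0 and 5 counts with NC and 19, 12 and 41 with vehicle.

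The other genes called in HFD against NC came from several lists. Cd36, a scavenger receptor that assists TLR2, was higher by 1.75 ± 0.47 on the log2 scale (adjusted p = 0.175). The kinase gene Tbk1 was higher by 1.30 ± 0.56 (adjusted p = 0.360). Of the 11 tested genes that TLR signalling is known to induce, 2 were called, the chemokine genes Ccl4 (1.26 ± 0.44, adjusted p = 0.288) and Ccl5 (1.48 ± 0.59, adjusted p = 0.333). Ccl5, which T and NK cells also express, stood at 85.1 and 347 CPM with NC, at 402, 740 and 668 CPM with vehicle, and at 215, 846, 485 and 479 CPM with DPI. The 5 measured markers of T and NK cells summed to 53.2 and 151 CPM, to 77.9, 219 and 168 CPM, and to 127, 302, 144 and 122 CPM in the same order. Both were highest in DPI library 2, next in vehicle library 2 and lowest in NC library 1. Of these markers only the T cell gene Cd3e was called, higher in HFD against NC (2.23 ± 0.59) and in DPI against NC (1.63 ± 0.56). The part of T and NK cells in the Ccl5 values, and of the macrophage and monocyte markers in the diet calls, was not tested. None of the 9 tested trafficking genes, 5 tested adaptor genes and 7 tested transcription factor genes was called. Of the 10 calls, those of Cd36 and Socs1 held in each of the 20 alternative fits and the other 8 were lost in at least 2; without NC library 1 alone 7 were lost, and Ccl5 then stood at 0.81.

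With DPI against vehicle, Cd36 was the single pathway gene past the threshold, 1 of 72 (1.39%) against 2.84% of all tested genes. It stood at 111, 88.0 and 81.5 CPM with vehicle and at 22.5, 37.7, 47.1 and 73.6 CPM with DPI, with no overlap (2.48% of tested genes were lower without overlap) and a log2 fold change of -1.04 ± 0.36 (adjusted p = 0.999). The call of Cd36 was lost with library size scaling (-0.96), without vehicle library 1 (-0.91), DPI library 1 (-0.82) or DPI library 2 (-0.98), and with DPI libraries 3 and 4 only (-0.63). The count of 1 pathway gene became 8 with the replicate block and 11 with DPI libraries 1 and 2 only. Over all tested genes the count rose too in these fits, from 324 to 401 and 597. The median over the 72 genes was -0.14, and 44 of them (61.1%) were below 0, against 46.9% of all tested genes. Ticam1, the adaptor of the MyD88-independent route, stood at 37.5, 30.1 and 48.3 CPM with vehicle and at 12.7, 26.5, 18.6 and 23.8 CPM with DPI, again with no overlap, at -0.93 ± 0.37 (adjusted p = 0.999), under 2-fold. Ccl4 was at -0.89 ± 0.35 (adjusted p = 0.999), also under 2-fold. Of the other genes named for the diet, Socs1 was at -0.88 ± 0.41, Cd180 at -0.50 ± 0.47, Tbk1 at -0.47 ± 0.45, Nfkbia at -0.26 ± 0.30, Ccl5 at -0.25 ± 0.47, Trafd1 at -0.09 ± 0.31 and Sigirr at 0.80 ± 0.85, and none of these passed. Of the 9 trafficking genes, which include chaperones and proteases needed by the endosomal receptors, 8 were above 0, with a median of 0.20. Against NC, DPI had 5 of the 72 called (6.94% of them, against 9.29% of all tested genes), Ticam1 (-1.17 ± 0.41) and the kinase gene Chuk (-1.39 ± 0.64) as lower and Sigirr, Socs1 (1.16 ± 0.50) and Ccl5 (1.23 ± 0.56) as higher. Sigirr kept this call in the 19 alternatives that tested it, whereas those of Chuk, Ccl5 and Socs1 were lost in 12, 11 and 10 of 20 and that of Ticam1 in 2; without NC library 1 all but Sigirr were lost (Chuk -0.17, Ccl5 0.55).

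**Figure D5:**
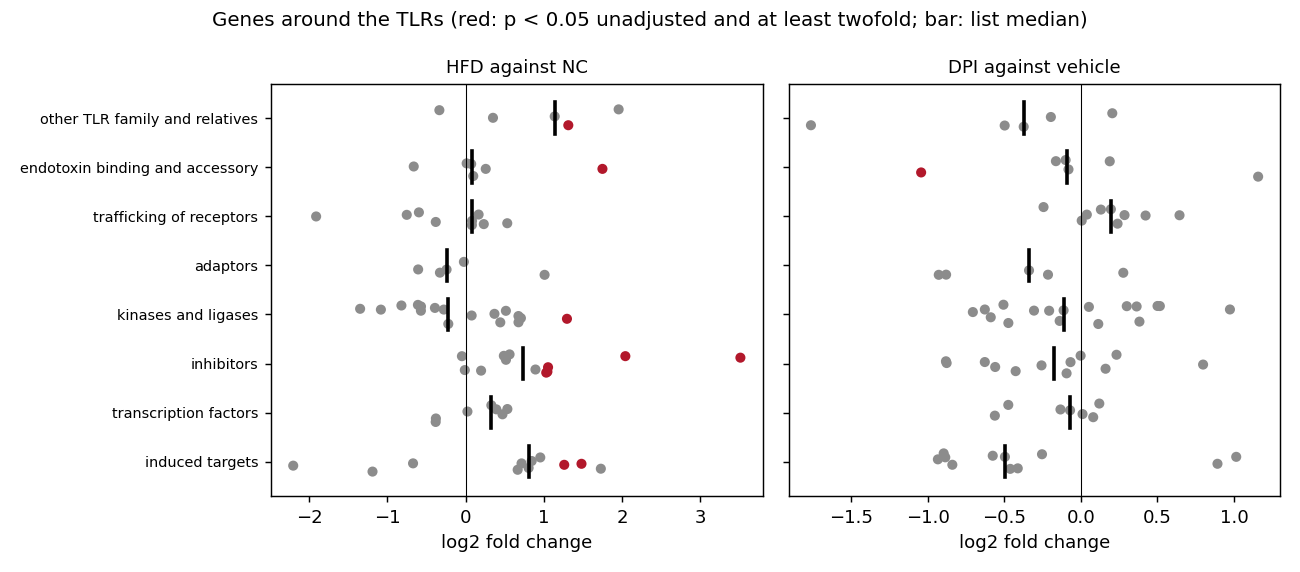
Log2 fold change of the tested pathway genes by list for HFD against NC (left) and DPI against vehicle (right), with a point for each gene, red for genes past the study's unadjusted threshold, and a black bar for the median of each list; the horizontal scales of the panels differ. In the left panel 10 points are red, 5 of them inhibitors, and in the right panel only Cd36 is.

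Scaling mattered for the direction of calls over all genes. With TMM factors 801 genes were higher and 528 lower in HFD against NC, and with library size alone 539 and 933, the median of all genes moving from 0.03 to -0.26. In DPI against vehicle the split was 171 higher and 153 lower with TMM and 196 and 101 with library size, and the same 10 genes then had a median of -0.52, with 9 again below 0. For DPI against NC it was 711 and 347 with TMM and 546 and 624 with library size.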

How the data were processed

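RNA from F4/80+CD11b+Gr1low macrophages, sorted by flow cytometry from collagenase-digested mouse livers, was sequenced as polyA RNA (KAPA mRNA HyperPrep) in 9 libraries. The deposited values are raw counts, whole numbers for each gene symbol, which the authors had not normalised. The methods give mm10, bowtie2 2.2.3 and RSEM 1.2.15, and the submitters' processing notes name TopHat2 and edgeR; whether the counting used strand is not given in the sources used here. RSEM divides reads shared by paralogs such as Tlr1 and Tlr6, but which of these tools gave the deposited whole-number counts is not certain.

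The deposited counts went into edgeR 4.0.16 under R 4.3.3 (filterByExpr, TMM factors, glmQLFit over the 3 groups and all 9 libraries, two-sided glmQLFTest), with Benjamini-Hochberg adjustment across all 11393 tested genes. A gene passed where p was under 0.05 before adjustment and the change was at least 2-fold, as in the study. The fit was also run on simulated counts. Recovery was required there only for a large change at a smaller spread than that of these data. That run therefore does not show how the test performs at the spread found here. Libraries of a group are separate mice by their titles. CPM values are TMM-normalised, and totals ranged from 3534325 to 15585775 counts, the smallest library therefore giving the least precise values; the spread between libraries was above counting error in 26 of 30 combinations of the 10 genes and 3 groups. Every column of the table belonged to one of the 9 samples (0 others).

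The 10 genes, the pathway lists and the marker lists were chosen with earlier results of these data known. All 10 genes were named; from each pathway list at most 4 genes past the threshold with the smallest p were named, and the other TLRs were named with their counts; Ccl4, Ticam1 and the other genes named for the diet were given in DPI against vehicle as genes called in another comparison. Gene positions and lengths are from GENCODE M21 (GRCm38), promoters from RefSeq (GRCm38.p6). Same-numbered libraries of different groups share no animal, and their deviations correlated by -0.02 to 0.08, so the numbers were not taken as pairs. Alternatives tried were scaling by RLE or by library size, 2 other filters on low counts, DESeq2 1.42.0, edgeR's likelihood ratio test, fits of 2 groups, a replicate block, counts without Rn45s, each library left out, and, chosen after seeing the data, DPI libraries 1 and 2 or 3 and 4 alone. Tables and figures were made with Python 3.11.15, pandas 2.3.3 and matplotlib 3.10.9.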

Additional observations from a re-analysis of the deposited data

How the results depend on the processing

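With 2 to 4 libraries a group, the calls of single genes depended on which libraries were in. Of 200 values of the 10 genes under the alternatives in HFD against NC, 175 kept their direction and side of the threshold, 15 changed sign, 7 lost and 3 gained a call; the numbers were 181, 6, 9 and 4 in DPI against vehicle and 180, 14, 4 and 2 in DPI against NC. The cause of these changes was not tested. With one NC library left out, the other is assumed to vary like the other groups. Counting error was largest for genes with few counts, but for Tlr9 with vehicle it came to a CV of 7.17% beside 80.5% between libraries.

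Of the 10 genes, the number past the study's threshold in HFD against NC was 1, 0 with library size scaling, with 2 groups only and with the replicate block, 2 with DPI libraries 1 and 2 only, and 0 to 2 with one library left out (2 without vehicle library 2). In DPI against vehicle it was 2, 1 with the replicate block (Tlr7) and with DPI libraries 3 and 4 only, 3 with DPI libraries 1 and 2 only, and 0 to 3 with one library left out (0 without vehicle library 1). In DPI against NC it was 1, 0 with DPI libraries 1 and 2 only, and 0 to 2 with one left out.

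Of the 72 pathway genes, 10 passed in HFD against NC, 6 with library size scaling or the replicate block, and 6 to 18 with one library left out. In DPI against vehicle 1 passed, 0 with library size scaling or DPI libraries 3 and 4 only, 8 with the replicate block, 11 with DPI libraries 1 and 2 only, and 1 to 8 with one left out. In DPI against NC 5 passed, 3 with no filter on low counts or with 2 groups only, and 2 to 9 with one left out.

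Over all tested genes, 1329 passed in HFD against NC, 726 with at least 10 counts in every library and 1027 to 2634 with one left out (2634 without NC library 2). In DPI against vehicle 324 passed, 602 with no filter, 202 with at least 10 counts, 194 with DPI libraries 3 and 4 only, 597 with libraries 1 and 2 only, and 187 to 543 with one left out. In DPI against NC 1058 passed, 527 with at least 10 counts and 830 to 2626 with one left out. The replicate block gave 897, 401 and 818 genes in the 3 comparisons.

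Signs turned in HFD against NC for Tlr4 (-0.29 with library size scaling, -0.0011 with DESeq2, -0.65 to 1.50 with one library left out), Tlr8 (-0.27 with library size scaling, -0.0066 with the replicate block, -0.28 to 0.58) and Myd88 (0.0014 with the replicate block, 0.0095 without Rn45s, -0.22 to 0.25). In DPI against vehicle they turned for Cd14 (0.31 with DPI libraries 3 and 4 only, -1.63 and past the threshold with 1 and 2 only, -1.15 to 0.47 with one left out), Ly96 (0.053 with DPI libraries 1 and 2 only) and Myd88 (-0.14 with DPI libraries 3 and 4 only, -0.071 to 0.27). In DPI against NC they turned for Tlr2 (-0.26 to 0.20 with one left out), Tlr4 (-1.30 to 0.85), Tlr8 (-0.72 to 0.13), Tlr13 (0.13 with DPI libraries 3 and 4 only, -0.41 to 0.41), Cd14 (-0.38 with DPI libraries 1 and 2 only, 1.56 and past the threshold with 3 and 4 only) and Myd88 (-0.16 with library size scaling, -0.15 with DPI libraries 3 and 4 only, -0.14 to 0.33). Cd14 in HFD against NC, 1.26, passed at 1.25 in the fit with DPI libraries 1 and 2 only.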

Other observations

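The eosinophil granule gene Prg2 stood at 79.4, 90.0, 0.371 and 47.8 CPM in DPI libraries 1 to 4 and at 1.81 CPM or less in the NC and vehicle libraries. Epx, the eosinophil peroxidase gene, stood at 9.26, 6.11, 0 and 10.3 CPM in the same DPI libraries and was at 0 in the other 5. The hepatocyte markers summed to 114 to 221 CPM with NC, 14.1 to 60.6 CPM with vehicle and 30.4 to 82.5 CPM with DPI, and the markers of T and NK cells to 53.2 to 151, 77.9 to 219 and 122 to 302 CPM. The dendritic cell markers summed to 55.2 to 61.1 CPM with NC, 30.6 to 78.6 CPM with vehicle and 59.1 to 134 CPM with DPI. No outlying library was found for the 10 genes in the DPI group by Dixon's test at its 95% level, the only group with at least 4 libraries.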
